A study of Mus musculus with 4 samples.

Results

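Genes that mark the oligodendrocyte lineage, from the progenitor to the newly formed oligodendrocyte, were read out in coronal brain sections of mice at postnatal day 21. The members were found by symbol among the 19465 features of the count tables, and all 10 of 10 were present: Olig1, Olig2, Sox10, Nkx2-2, Pdgfra, Cspg4, Gpr17, Bcas1, Enpp6 and Myrf. The MF group comprised 2 sections from wild-type male C57BL/6J offspring whose mothers ate a diet with 2 mg/kg folic acid (FA). The HF group comprised 2 sections from the same kind of offspring of mothers on 20 mg/kg FA. In both groups the diet ran from 2 weeks before mating through pregnancy and lactation. The study calls the 2 sections of a group biological replicates, and whether they came from different litters is not given in the sources used here.

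Oligodendrocyte progenitors divide, spread through the brain and then leave the cell cycle to become newly formed oligodendrocytes, which either mature into myelinating cells or are lost. Olig1 and Olig2, basic helix-loop-helix factors, and Sox10, a high-mobility-group factor, are active through the whole lineage. Pdgfra, the receptor for platelet-derived growth factor, and Cspg4, the NG2 proteoglycan, mark progenitors and are also found outside the lineage, Pdgfra in fibroblasts and Cspg4 in pericytes and vessel muscle. Nkx2-2 is a homeodomain factor of late progenitors and of the step into differentiation. Gpr17, a G protein-coupled receptor, marks committed precursors. Bcas1 and Enpp6, a choline phosphodiesterase, mark newly formed cells, and Myrf is the membrane-bound factor that switches on myelin genes. Myelination of the mouse forebrain is still under way at weaning.

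In mm10 (GRCm38) Olig2 (ENSMUSG00000039830) lies on the plus strand of chromosome 16 from 91225457 to 91228677. Olig1 (ENSMUSG00000046160) follows on the same strand from 91269772 to 91271933, 41.1 kb farther on. Sox10 (ENSMUSG00000033006) spans 79154908 to 79165240 on the minus strand of chromosome 15. Nkx2-2 (ENSMUSG00000027434), at 147177546 to 147194243, and Bcas1 (ENSMUSG00000013523), at 170346991 to 170427845, both lie on the minus strand of chromosome 2. Pdgfra (ENSMUSG00000029231) lies on chromosome 5 from 75152292 to 75198215. Cspg4 (ENSMUSG00000032911) lies on chromosome 9 from 56865033 to 56899870, and Enpp6 (ENSMUSG00000038173) on chromosome 8 from 46986887 to 47096762, all 3 on the plus strand. Gpr17 (ENSMUSG00000052229) occupies 31942997 to 31949636 on the minus strand of chromosome 18. Myrf (ENSMUSG00000036098) occupies 10208272 to 10240748 on the minus strand of chromosome 19.

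In Visium-FFPE, paired probes bind RNA in the fixed tissue and are counted as unique molecular identifiers (UMIs) in barcoded spots, each of which covers several neighbouring cells. Between 3197 and 3598 spots per section were kept, with 34982061 to 90096877 UMIs in all, and the deepest section was MF replicate 1. Spots were clustered without the 10 genes and grouped into 8 areas by fixed markers: white matter (WM), cortex (CTX), striatum (STR), hippocampus (HP), hypothalamus (HY), thalamus (TH), meninges (MEN) and the ventricular system with the medial habenula (VS). The areas describe likeness to marker profiles, and 16.03% of the spots stayed in unnamed clusters. Of the 279 spots of VS, 230 lay in a cluster with medial habenula genes such as Pou4f1 and 49 in a choroid plexus cluster. A level is given as CPM, the UMIs of a gene in a set of spots scaled so that all features of that set add up to the same total in every section and area. In a sum over spots, fewer cells of a type and less RNA per cell cannot be told apart.

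The white matter cluster held 179 to 248 spots per section, and 15 of its 50 leading genes were white matter markers. Mog, a glycoprotein of the outer myelin surface, had 1882 ± 207 CPM there against 213 ± 30.3 CPM in CTX (SD, n = 4). Slc17a7, the glutamate transporter of cortical neurons, had 1016 ± 31.9 CPM in WM and 3152 ± 78.7 CPM in CTX, so neuronal RNA was also present in the white matter spots.

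The genes were densest in white matter, with Pdgfra and Cspg4 as the exceptions. For the other 8 of the 10, WM had the highest mean level of the 8 areas, and its lowest section lay above the highest section of every other area. Olig1 had 731, 802, 918 and 776.5 CPM in the WM of MF replicates 1 and 2 and HF replicates 1 and 2. In CTX its mean was 150 ± 6.29 CPM (SD, n = 4). The next area for Olig1 was TH with 319 ± 7.93 CPM, which also stood apart from STR below it. Olig2 was rare throughout, with a mean of 43.1 ± 6.545 CPM in WM and 6.65 ± 1.201 CPM in CTX. The Sox10 mean was 251 ± 55.7 CPM in WM and 41.45 ± 9.996 CPM in CTX. Its WM sections read 261 and 302 CPM in the MF group and 268 and 171 CPM in the HF group. HF replicate 2 lay far below the other 3.

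**Figure D1:**
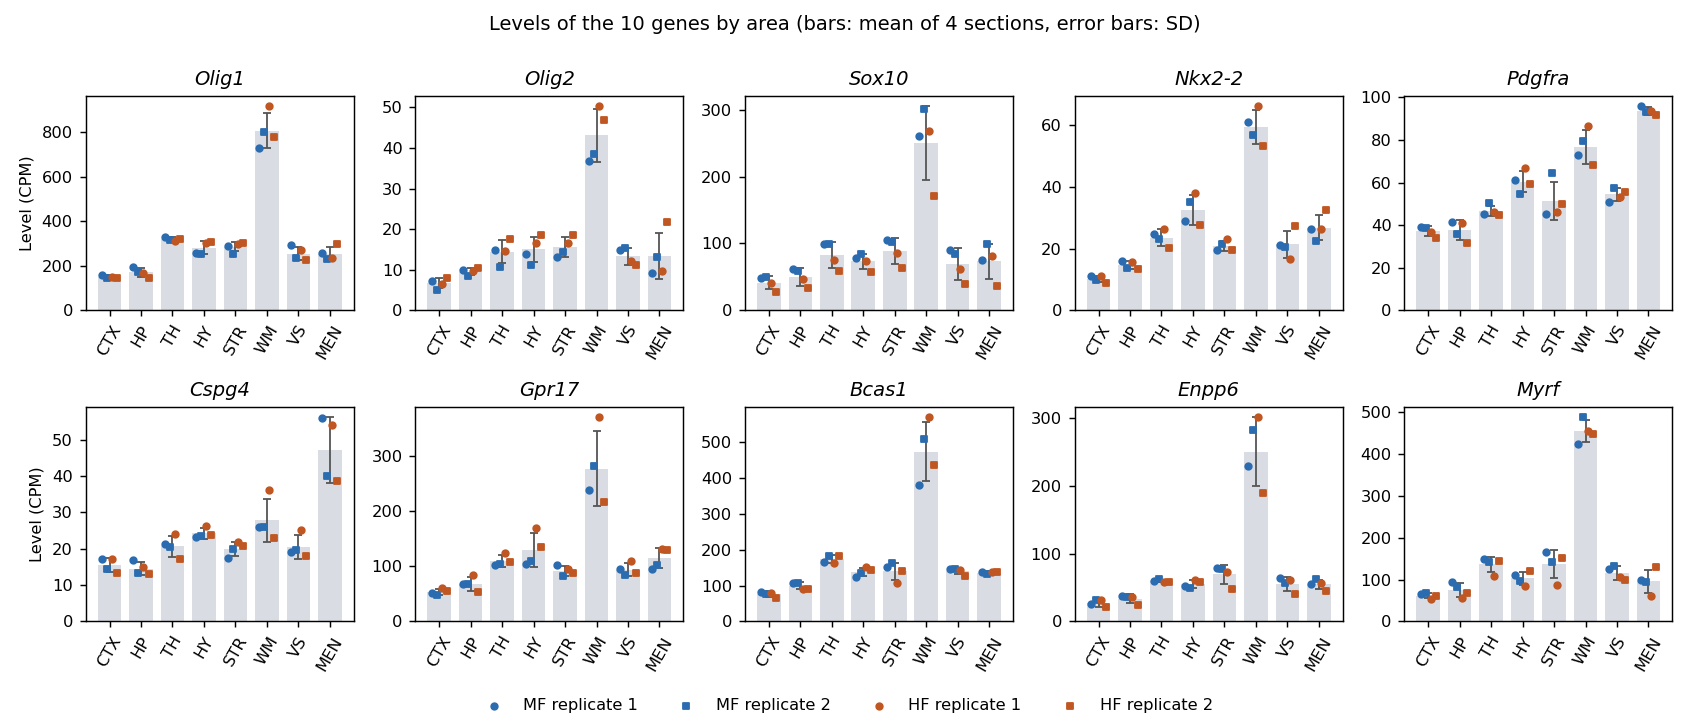
Level of each gene in CPM (vertical axis, from 0) by area (horizontal axis), with grey bars for the mean of 4 sections, error bars for the SD, circles and squares for replicates 1 and 2, and colours for the MF and HF groups. WM stands above every other area for 8 genes, whereas Pdgfra and Cspg4 are highest in MEN, with means of 93.6 and 47.2 CPM.

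The later genes of the series showed the same order. Myrf had 425 to 489 CPM in the WM of the 4 sections and 61.6 ± 5.73 CPM in CTX. Enpp6 had 229 and 283 CPM in WM with MF and 301.5 and 190 CPM with HF, against a CTX mean of 27.4 ± 5.49 CPM. The WM levels of the groups thus overlapped for both genes. Bcas1 had a WM mean of 474 ± 83.5 CPM, and TH came next with 174 ± 10.2 CPM. Gpr17, with 278 ± 67.9 CPM in WM, had HY as its next area with 130 ± 30.2 CPM. Nkx2-2 also had HY in the second place, with 32.4 ± 4.90 CPM after 59.4 ± 5.56 CPM in WM. For both genes the range of HY overlapped that of the area that followed it.

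Below white matter the order of the areas was mostly within the spread of the sections. For Sox10, Gpr17 and Myrf each of the areas from the second to the eighth overlapped its neighbour in the order. For 9 of the 10 genes CTX was the lowest area, and for Cspg4 it was HP. HP and CTX did not overlap for Olig2, with 9.54 ± 0.847 and 6.65 ± 1.201 CPM, nor for Nkx2-2 and Bcas1. For the other 7 genes these 2 lowest areas overlapped.

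Each area was set against the mean of the other 7 with edgeR's quasi-likelihood test on sums per area and section, with the section as a block. Calls needed an adjusted p (Benjamini-Hochberg) under 0.05 and a difference of at least 1.2-fold. The areas come from other genes of the same spots, so these tests rank the areas for each gene and are not independent of the clustering. In WM all 10 genes were called higher, where 19.0% of the 13397 features tested were. The log2 difference was largest for Enpp6 (2.44, SE 0.0693, adjusted p = 3.0e-28) and Myrf (2.27, SE 0.0633, adjusted p = 1.7e-28). Sox10 (2.00), Bcas1 (1.99), Olig2 (1.89) and Olig1 (1.86) followed, then Gpr17 (1.67) and Nkx2-2 (1.66). The progenitor markers had the smallest differences, 0.65 for Pdgfra (SE 0.0657, adjusted p = 7.3e-11) and 0.41 for Cspg4 (SE 0.0907, adjusted p = 2.1e-04). In CTX all 10 genes were called lower, by log2 differences of -1.24 to -0.49, beside 26.3% of all features. The same held in HP, from -0.90 to -0.57, beside 21.0% of all features. Outside WM, the calls for higher levels were few. In TH they were Olig1 (0.28) and Bcas1 (0.30), 2 of 10 genes beside 15.3% of all features, and with library size alone both fell under the fold threshold (0.23 and 0.25). Without MF replicate 2 Olig1 had 0.26, and without HF replicate 2 Bcas1 had 0.25. In HY it was Nkx2-2 alone (0.42), beside 16.1%, and in STR Enpp6 (0.29) and Myrf (0.27), beside 12.7%. Myrf was also called lower in HY (-0.39), beside 21.3% of all features, and in MEN (-0.46), beside 7.83%.

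**Figure D2:**
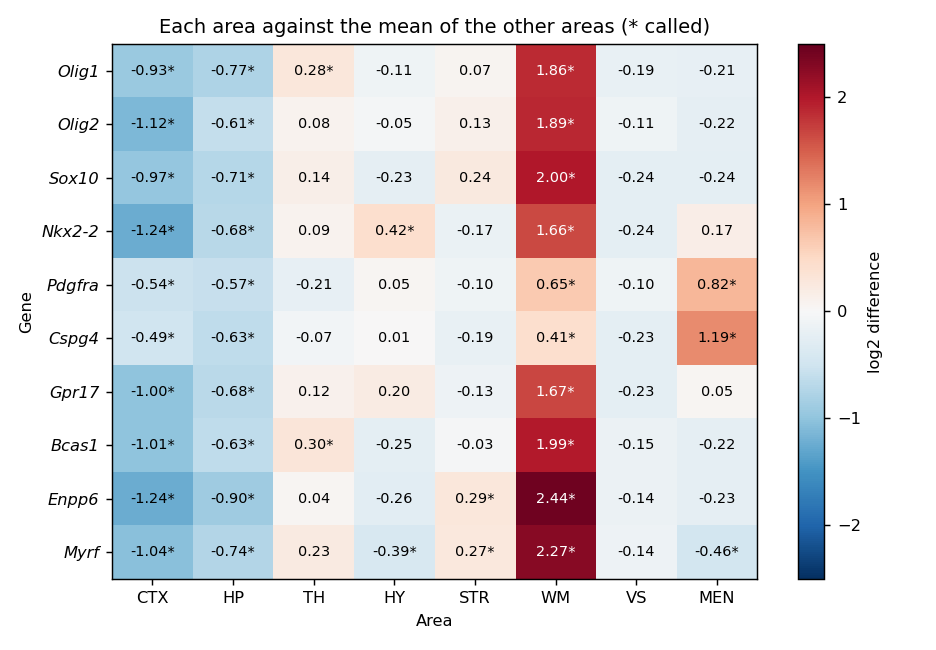
Log2 difference between each area (columns) and the mean of the other areas (colour scale and printed value), for each gene (rows), with an asterisk where the gene was called. The WM column is positive throughout, from 0.41 for Cspg4 to 2.44 for Enpp6, and the CTX and HP columns are negative throughout.

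Other genes of the lineage were high in white matter as well. Their lists follow known roles and were chosen with earlier results of these data known. Of 18 other progenitor genes, such as Vcan, Ptprz1 and Sox6, 13 were called higher in WM and 2 lower, with a median log2 difference of 0.59. Of 19 measured genes of committed and newly formed oligodendrocytes, 17 were called higher and none lower, with a median of 1.24. The 20 mature myelin genes, most of which served to name the area, had a median of 2.45. The median of the 10 genes was 1.88, and that of all features tested was -0.04. Of 23 upstream factors and signals that passed the filter, 13 were called higher in WM and 3 lower.

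Pdgfra and Cspg4 were highest at the surface of the brain. In MEN, Pdgfra had 96.1, 92.95, 93.5 and 91.95 CPM in MF replicates 1 and 2 and HF replicates 1 and 2, a narrow range that lay above the 68.4 to 86.65 CPM of WM. Cspg4 had 56.0, 40.0, 53.9 and 38.8 CPM in the same order, above its 23.0 to 36.25 CPM in WM. In the test of MEN against the other areas Cspg4 was called higher (log2 1.19, SE 0.102, adjusted p = 1.7e-12), as was Pdgfra (0.82, SE 0.0794, adjusted p = 4.4e-11). These were the only 2 of the 10 genes called higher there, beside 16.9% of all features. On interior spots of MEN alone, which left 3 to 16 spots per section, Pdgfra did not pass the test (log2 0.74, adjusted p = 0.057).

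The same spots held the markers of the other cell types that carry these RNAs. All 10 fibroblast markers were measured, and their summed level was 1350 to 3177 CPM in MEN against 86.55 to 108 CPM in CTX. Of the fibroblast genes, Col1a1 had 305 ± 116 CPM and Dcn 90.0 ± 28.7 CPM in MEN (SD, n = 4). The 11 pericyte and vessel wall markers summed to 788 to 1183 CPM in MEN and to 123 to 141 CPM in CTX. Of these, Pdgfrb had 59.4 ± 4.95 CPM and Acta2, the actin of vessel muscle, 283 ± 108 CPM. None of the defining markers was at 0. Gfap, an astrocyte filament, stood at 875 ± 331 CPM in MEN. The part of these cells in the levels of Pdgfra and Cspg4 was not tested. In WM, by contrast, the fibroblast list summed to 179.5 to 283 CPM and the pericyte list to 160 to 221 CPM.

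Sequence upstream of the gene with the largest white matter difference, Enpp6, and of both genes with the smallest, Pdgfra and Cspg4, is shown from RefSeq (GRCm38.p6), whose promoter table held 5 of the 10 genes. All 3 lie on the plus strand and end before the annotated gene. The Enpp6 window is chr8:46986637-46986886, that of Pdgfra chr5:75152001-75152250 and that of Cspg4 chr9:56864854-56865032. Capitals mark ACAAT or its complement ATTGT, the core that SOX factors such as Sox10 bind, and CANNTG, the E-box of helix-loop-helix factors such as Olig2, both searched on both strands.
Enpp6: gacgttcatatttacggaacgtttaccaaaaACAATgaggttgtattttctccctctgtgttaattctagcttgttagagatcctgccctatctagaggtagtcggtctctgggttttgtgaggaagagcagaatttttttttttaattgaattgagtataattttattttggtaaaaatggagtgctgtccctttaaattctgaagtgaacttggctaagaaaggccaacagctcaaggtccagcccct
Pdgfra: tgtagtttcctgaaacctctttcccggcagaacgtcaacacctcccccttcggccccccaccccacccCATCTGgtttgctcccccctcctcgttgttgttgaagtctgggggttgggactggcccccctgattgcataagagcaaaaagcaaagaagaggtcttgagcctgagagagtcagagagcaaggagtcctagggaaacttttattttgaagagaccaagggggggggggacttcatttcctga
Cspg4: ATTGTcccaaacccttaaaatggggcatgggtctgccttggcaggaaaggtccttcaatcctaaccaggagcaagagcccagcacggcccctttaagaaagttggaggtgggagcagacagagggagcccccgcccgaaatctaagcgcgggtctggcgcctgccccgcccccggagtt
The Enpp6 window of 250 bases held 1 SOX core and no E-box. The Pdgfra window, also 250 bases, held 1 E-box and no SOX core, and the shorter Cspg4 window of 179 bases held 1 SOX core and no E-box. In the 32851 promoters of the table, 27.7% had the SOX core and 66.2% the E-box within 250 upstream bases, and 21.5% and 55.3% within the first 179 of them. These matches are letters in a window and are not binding sites.

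How far the genes extended from the tracts was described by the distance of each spot from the nearest white matter spot, counted in steps of the array of about 100 µm. Only the named white matter cluster counted as white matter. An unnamed cluster led by Thbs4, with 11 white matter markers among its 50 leading genes, thus counted as outside it. MF replicate 1 held 148 of its spots and the other sections 62 to 73. Olig1 fell from a mean of 807 CPM within WM to 435 ± 61.2 CPM (SD, n = 4) at 1 step and to 231 ± 18.5 CPM at 9 steps or more. Most of the fall took place within the first 2 steps, where Olig1 had 284 CPM. Enpp6 went from 251 CPM in WM to 107 ± 15.8 CPM at 1 step and 42.4 ± 6.29 CPM at 9 steps or more. Myrf had 201.5 ± 34.7 CPM at 1 step and 88.2 ± 6.90 CPM far away.

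The ratio of the level at 1 step to that at 9 steps or more differed along the lineage. Its geometric mean over the 4 sections was 2.53 for Enpp6 (range 2.245 to 2.91), 2.26 for Myrf, 2.17 for Sox10 and 2.07 for Bcas1. For Olig1 it was 1.87, for Olig2 1.82, for Gpr17 1.61 and for Nkx2-2 1.55. For Pdgfra it was 1.30 (range 1.16 to 1.43). Cspg4 had 1.13, with a range of 0.757 to 1.37, so that HF replicate 1 ran the other way. The bins mix areas in different shares, and Slc17a7 moved with them, from 1461 CPM at 1 step to 2341 CPM at 6 to 8 steps and 1523 CPM at 9 steps or more. Within CTX, where the nearest bin with enough spots was at 2 steps, the ratio to 9 steps or more was 2.22 for Myrf and 2.00 for Enpp6. There it was 1.22 for Pdgfra, with a range of 0.948 to 1.51, and 1.03 for Cspg4, and neither of the 2, nor Gpr17 (1.39, range 0.933 to 1.78), had 1 direction in all sections. Within HP, where the nearest bin was at 6 to 8 steps, the ratio was under 1 for 7 of the 10 genes, among them Olig1 (0.957), Bcas1 (0.9003), Enpp6 (0.917) and Myrf (0.913). It was highest for Olig2 (1.95, range 0.735 to 3.46) and Nkx2-2 (1.40, range 0.961 to 2.64), without 1 direction in all sections. The far bin in HP held as few as 32 spots in a section, with 2.85 to 9.42 CPM of Olig2. In TH, from 4 steps, it was 1.76 for Enpp6 and 1.62 for Myrf, and in HY, from 1 step, 1.98 and 2.11.

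**Figure D3:**
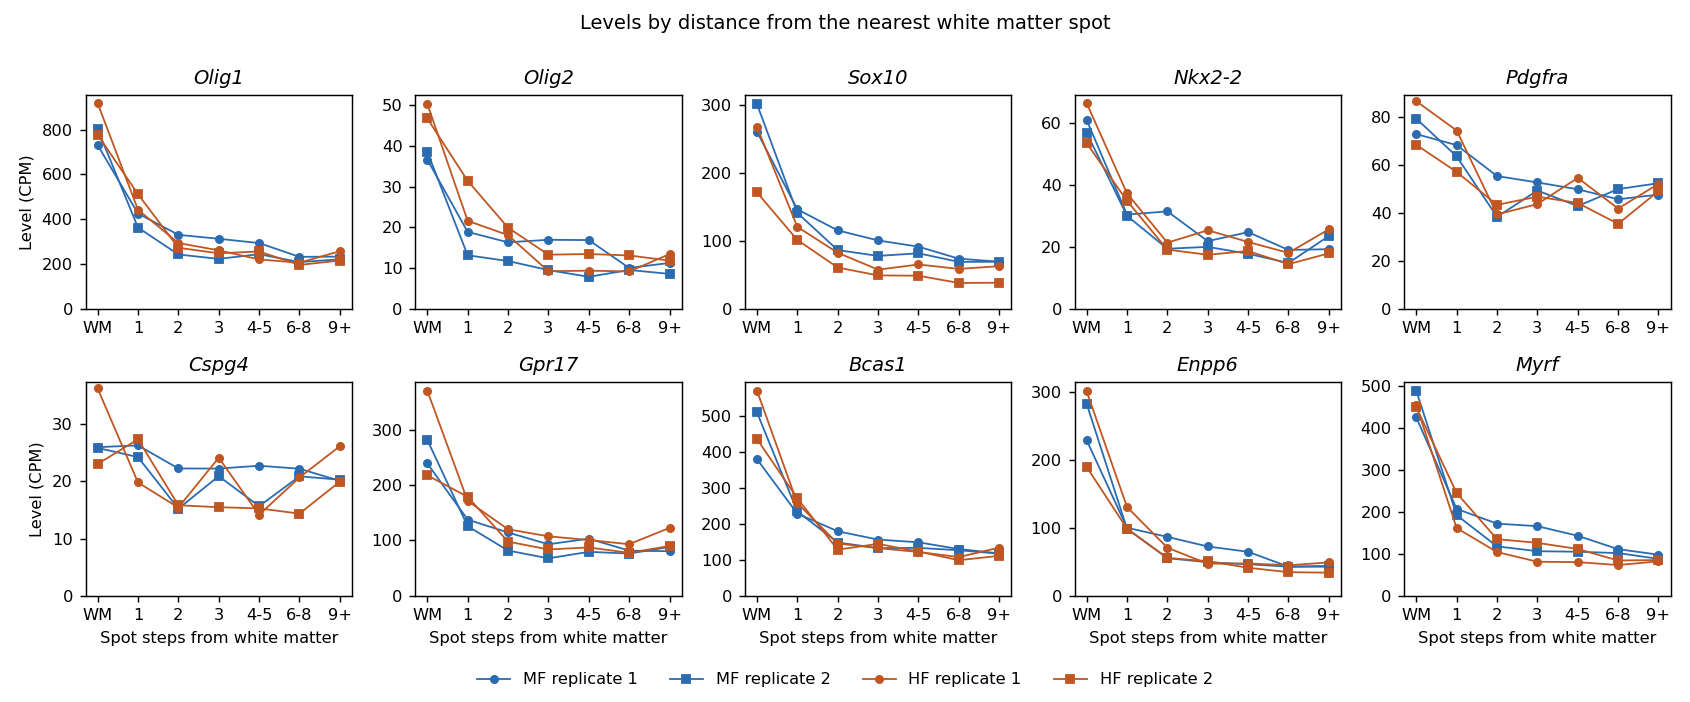
Level of each gene in CPM (vertical axis, from 0) within WM and at 1 to 9 or more steps from the nearest white matter spot (horizontal axis, 1 step is about 100 µm), 1 line per section. The lines fall steeply to 2 steps for 8 genes, and those of Cspg4 stay between 14.15 and 36.25 CPM.

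White matter held 5.38% ± 1.61 of all UMIs (SD, n = 4) and 6.45% ± 1.13 of the spots. Of the Enpp6 UMIs, 21.65% ± 5.23 lay there, and of the Myrf UMIs 19.5% ± 4.44. For Cspg4 it was 6.97% ± 1.64 and for Pdgfra 8.10% ± 2.12. The remaining 6 genes had means from 13.6% to 17.0%. The highest share in any section was 28.1%, of Enpp6 in MF replicate 2, so most UMIs of every gene lay outside the white matter spots. The unnamed cluster led by Thbs4 was not counted as white matter here either.

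Single spots were read after each was thinned to 5000 UMIs, which left 12710 of 13452 spots. At least 1 UMI of Olig1 was found in 97.5% ± 1.92 of the WM spots (SD, n = 4) and in 50.05% ± 2.77 of the CTX spots. Myrf was found in 87.4% ± 4.07 and 24.2% ± 3.16, and Enpp6 in 64.45% ± 6.99 and 11.7% ± 2.74. For Pdgfra the shares were 32.4% ± 3.51 and 15.3% ± 1.41, and for Cspg4 14.2% ± 2.90 and 7.60% ± 0.752. On average 5.65 ± 0.368 of the 10 genes had a UMI in a thinned WM spot and 1.89 ± 0.127 in a CTX spot. A spot covers several cells, so these shares are not shares of cells. Free RNA also adds to them, and no area without oligodendrocytes is at hand to measure it. Unthinned, Enpp6 was found in 59.4% of the spots of the deepest section, MF replicate 1, and in 38.1% to 43.7% of those of the other 3, while the thinned shares ranged from 21.6% to 24.3%.

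Moran's I, a score of how alike neighbouring spots are, was deposited for 16731 to 18235 of the 19465 features, by section. It was 0.340 to 0.400 for Olig1, which ranked between 140 and 276 among the features scored in a section. Myrf had 0.288 to 0.379, Bcas1 0.259 to 0.336, Enpp6 0.224 to 0.288, Sox10 0.175 to 0.279 and Gpr17 0.157 to 0.199. The score was lower than in these for Olig2 (0.0349 to 0.0721) and Nkx2-2 (0.0656 to 0.108), the scarcer factors, and for Pdgfra (0.0205 to 0.0525). It still lay above the median over all features in each section for Olig2, Nkx2-2 and Pdgfra. For Cspg4 it was 0.00213 to 0.00981, below the median over all features of 0.0104 to 0.0166 in each section. The score depends on the number of UMIs as well as on the pattern.

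Over the 25 clusters of spots, the 10 genes fell into a group of 8 and a pair, a split made after the values were seen. Among the 28 pairs that held neither Pdgfra nor Cspg4, Pearson's r between mean levels over the clusters, on log2(CPM + 1), ran from 0.816 to 0.991. It was highest for Olig1 with Sox10. In the 16 pairs of Pdgfra or Cspg4 with another gene it ran from 0.510, for Pdgfra with Myrf, to 0.773. Between Pdgfra and Cspg4 it was 0.891. The clusters share sections and depth, and the values are a description.

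The white matter cluster, led by Gsn, Mal and Cyp2j12, had the highest mean of 8 genes. The second place went to an unnamed cluster led by Thbs4, Hist1h3c and Hist1h3b, whose 50 leading genes held 11 white matter markers and 3 of the ventricular class. It held 148 spots in MF replicate 1 and 62 to 73 in the other sections. Olig1 had 609 ± 131 CPM there and Enpp6 157.5 ± 25.6 CPM (SD, n = 4). For Olig2 the sections of this cluster spread from 6.62 to 49.5 CPM. Pdgfra had its second place in the cluster of VS led by the choroid plexus genes Ttr, Folr1 and Tmem72, with 86.6 ± 6.30 CPM. At the other end, an unnamed cluster led by Pomc had the lowest means of Olig1, Bcas1, Enpp6 and Myrf. Enpp6 had 13.6 CPM there, and Myrf 26.2 CPM.

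Within HP the genes were unevenly spread over its 4 clusters. The cluster led by Cabp7, Thbs4 and Gm2115, the largest of the 4 in HP, had the highest mean of each of the 10 genes among them. Olig1 had 286 CPM in this cluster, 148 CPM in the cluster led by Dsp and Igfbpl1, which also had Prox1 and C1ql2, genes of dentate granule cells, among its leading genes, and 119 CPM and 89.5 CPM in the clusters led by Spink8 and Il16. Pdgfra followed with 62.9, 35.5, 18.65 and 22.2 CPM in the same order.

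Among the 13397 features that passed the filter, those with the pattern most like each gene over the 32 sums per area and section were named by Pearson's r. Enpp6 was closest to Adamts4 (r = 0.986) and Cmtm5 (0.983), and Myrf to Tspan2 (0.982), a myelin tetraspanin, and Pdlim2 (0.982). Olig1 was closest to Mag (0.980), a myelin adhesion protein, and to Tspan15 (0.979). Olig2 was closest to Olig1 (0.943) and Llgl1 (0.941). Bcas1 was closest to Plekhb1 (0.976) and Nfasc (0.976), Sox10 to Scd2 (0.961) and Slc44a1 (0.958). Gpr17 was closest to Lamp1 (0.953) and Gab1 (0.942), and Nkx2-2 to Gpr17 (0.941) and Gab1 (0.930). Pdgfra had Dock6 (0.926) and Zcchc24 (0.914) nearest to it. Cspg4 had Pdgfra (0.911) and Zfp36l2 (0.906).

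HF was then compared with MF. Sums of counts per section were tested with edgeR's quasi-likelihood test at the same thresholds, over the whole section and in each area. With 2 sections per diet the smallest p of an exact two-sided permutation test of a single gene is 0.333, and the p-values given here come from edgeR, which borrows the spread from all features. None of the 10 genes was called in the whole section or in any of the 8 areas. The share of all features called was itself small, at 0.0% in the whole section, TH and HY, 0.151% in CTX, 0.185% in HP, 0.0627% in STR, 0.0249% in WM, 0.00857% in VS and 0.0179% in MEN. At an unadjusted p under 0.05 Sox10 and Gpr17 passed in the whole section, beside 6.81% of all features. In HP 4 genes passed (Olig1, Sox10, Bcas1 and Myrf) beside 8.43%, and in HY 4 (Olig1, Olig2, Sox10 and Gpr17) beside 6.53%. In each of the other areas 1 or 2 passed. The shares of all features there were 8.19% in CTX, 7.2% in TH, 6.62% in STR, 5.7% in WM, 7.42% in VS and 3.73% in MEN. On simulated sections summed over all spots, edgeR found 49.5% of 200 features with a 1.5-fold change and 84.0% of 200 with a 2-fold change. A change of the smaller size could thus go uncalled. Each simulated feature varied on its own around a common profile, so shifts shared by many features were not simulated. These shares may not hold for the real sections.

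Sox10 was lower in HF than in MF in every area, without passing the test. Over the whole section it had 88.9 and 93.7 CPM in MF replicates 1 and 2 and 72.3 and 57.2 CPM in HF replicates 1 and 2. Both HF sections lay below both MF sections, and HF replicate 2 was the lowest. The log2 difference of HF against MF was -0.51 (SE 0.112, adjusted p = 0.696 by edgeR). The difference was negative in all 8 areas, from -0.74 in VS to -0.31 in HY, and the smallest adjusted p by edgeR was 0.159, in HP. In 6 of the 8 areas both HF sections lay below both MF sections, the exceptions being WM and MEN. Among all features the same held for 2815 of 13206 in CTX, 2556 of 12416 in HP and 2406 of 13379 in TH. It held for 2367 of 13559 in HY, 1952 of 11173 in STR and 2522 of 11664 in VS. In HP the values of Sox10 were 61.1 and 59.1 CPM in MF and 46.7 and 32.9 CPM in HF. In CTX they were 48.7 and 49.2 CPM against 40.1 and 27.85 CPM. The 8 areas come from the same 4 sections and are not independent of each other.

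DESeq2 called Sox10 lower over the whole section (adjusted p = 0.0455), beside 0.168% of all features. With the section number as a block, edgeR called it in CTX, HP and VS, beside 0.652% to 0.96% of all features. Without HF replicate 1 it was called in the whole section and in all 8 areas, with a log2 difference of -0.67 over the whole section and of -1.19 in MEN to -0.50 in HY. The same fit called 7.68% of all features in the whole section and 0.71% to 7.14% in the areas. Without HF replicate 2 it was called in the whole section and TH only, beside 5.55% and 9.36% of all features. The difference was then -0.36 over the whole section, and in the areas it was -0.07 in WM, -0.09 in MEN, -0.14 in HY, -0.27 in STR, -0.28 in CTX, -0.37 in HP, -0.41 in TH and -0.51 in VS. Leaving out either MF section gave no call.

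Sox10 was also set against Olig1 in the same spots, a ratio that no scaling of the sections alters. The ratio reuses the Sox10 counts, and Olig1 itself differed little (log2 0.02 over the whole section), so the ratio adds no separate support. Sox10 had 31.7 and 34.4 UMIs per 100 UMIs of Olig1 in MF replicates 1 and 2 and 26.3 and 19.7 in HF replicates 1 and 2. In 7 of the 8 areas both HF sections lay below both MF sections, and MEN was the exception. No share over all features was computed for this ratio. Myrf had 47.1 and 48.1 UMIs per 100 of Olig1 in MF, and 35.3 and 46.7 in HF. Its ratio was lowest in HF replicate 1 in all 8 areas, whereas that of Sox10 was lowest in HF replicate 2 in all 8. Over the whole section the HF sections thus lay farther apart than the MF sections for both ratios, with a different section at the low end.

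**Figure D4:**
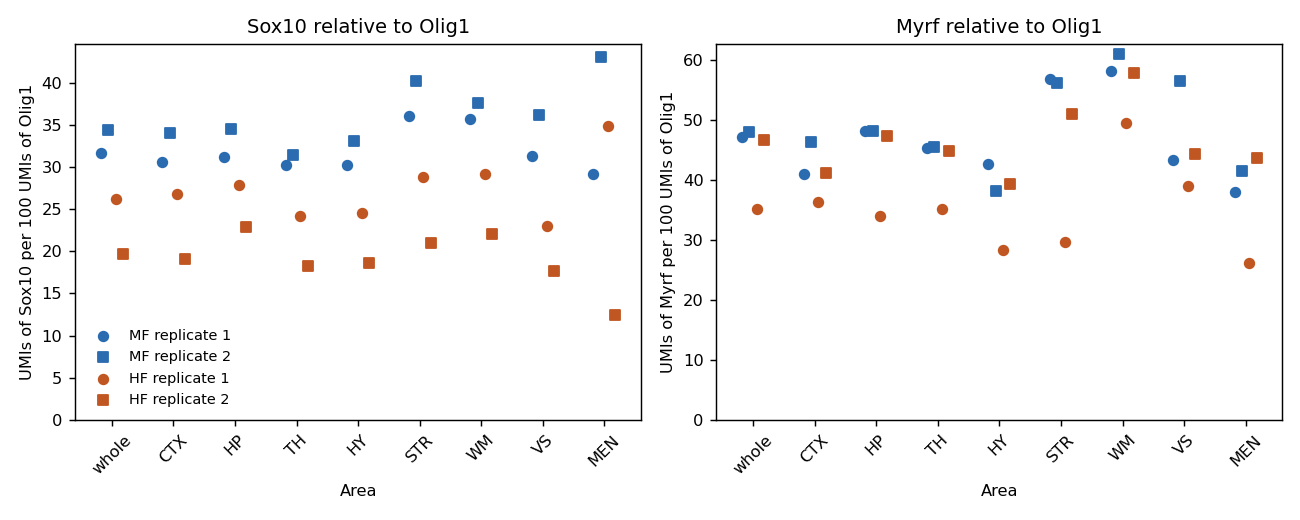
UMIs of Sox10 (left) and Myrf (right) per 100 UMIs of Olig1 (vertical axes, from 0) in the whole section and the 8 areas (horizontal axes), with 1 symbol per section. HF replicate 2 is the lowest for Sox10 and HF replicate 1 the lowest for Myrf in every area.

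Myrf had 132 and 131 CPM in MF, and HF replicates 1 and 2 had 97.1 and 135.5 CPM. The groups overlapped over the whole section (log2 -0.18, SE 0.158, adjusted p = 0.81 by edgeR). The difference was 0.0465 without HF replicate 1 and -0.46, and called, without HF replicate 2. In HP both HF sections lay lower, with 56.9 and 68.0 CPM after 94.5 and 82.6 CPM in MF (log2 -0.50, SE 0.122, adjusted p = 0.1645 by edgeR). Myrf in HP was called when HF replicate 1 or 2 was left out (5.4% and 0.905% of all features called), and also without the filter on low counts (0.915%). Gpr17 ran the other way. It had 95.7 and 98.6 CPM in MF and 124 and 105 CPM in HF over the whole section (log2 0.23, SE 0.09345, adjusted p = 0.72 by edgeR). Without HF replicate 1 the difference was 0.11, and without HF replicate 2 it was 0.33. In HY it had 104 and 110 CPM in MF against 171 and 135 CPM in HF (log2 0.50, SE 0.1205, adjusted p = 0.7485 by edgeR), and it was called there when HF replicate 1 or 2 was left out, beside 7.14% and 3.75% of all features. Relative to Pdgfra, Gpr17 had 190 and 189 UMIs per 100 in MF and 241.5 and 221 in HF. Olig2 had 13.7 and 11.3 CPM in MF and 13.8 and 17.3 CPM in HF (log2 0.30, SE 0.159, adjusted p = 0.73 by edgeR). Its difference was 0.46 without MF replicate 1, 0.17 without MF replicate 2, 0.45 without HF replicate 1, and 0.10 without HF replicate 2.

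The other 6 genes differed little over the whole section. Olig1 had 281 and 272 CPM in MF and 275 and 290 CPM in HF, and Pdgfra 50.5 and 52.1 CPM against 51.5 and 47.4 CPM. The log2 differences were 0.02 for Olig1, 0.0044 for Nkx2-2, -0.06 for Pdgfra, -0.0036 for Cspg4, -0.03 for Bcas1 and -0.12 for Enpp6, with SE from 0.0760 to 0.121. The groups overlapped for each of these 6. Sections that do not overlap were common among all features, at 39.6%, beside 3 of the 10 genes (Sox10, Gpr17 and Olig2). The sections held the areas in different shares. With the same share of each area given to every section, the log2 ratio of the group means was -0.45 for Sox10, 0.34 for Olig2, 0.27 for Gpr17 and -0.14 for Myrf.

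In HP and HY the log2 differences had opposite signs for most of the genes, and several lay within 1 SE of 0. Gpr17 had -0.0021 in HP (SE 0.158). Nkx2-2 had -0.07 in HP (SE 0.196) and 0.04 in HY (SE 0.176). The genes also varied together over the clusters, so their signs are not independent of each other. In HP 9 of the 10 log2 differences were negative, with a median of -0.19, and both HF sections lay below both MF sections for 5 (Olig1, Sox10, Bcas1, Enpp6 and Myrf), beside 20.6% of all features. In HY 8 of the 10 were positive, with a median of 0.14, and both HF sections lay above both MF sections for 6, beside 20.8% of all features. Enpp6 had 38.3 and 36.1 CPM in MF and 35.9 and 24.5 CPM in HF within HP. Within HY it had 52.3 and 49.55 CPM in MF and 61.3 and 58.2 CPM in HF. The median of all features was -0.0018 in HP and 0.0013 in HY. The difference between areas was tested as area by diet terms over 6 areas in edgeR, which called 0.0284% of 14074 features and none of the 10 genes. The smallest adjusted p was 0.48, for Olig1, whose log2 difference ranged over 0.47 between areas. Unadjusted, Olig1, Gpr17 and Bcas1 were under 0.05, beside 6.89% of all features. Without HF replicate 1 the terms called Olig1, Gpr17 and Enpp6, beside 2.88% of all features, and without HF replicate 2 Bcas1, beside 0.593%.

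**Figure D5:**
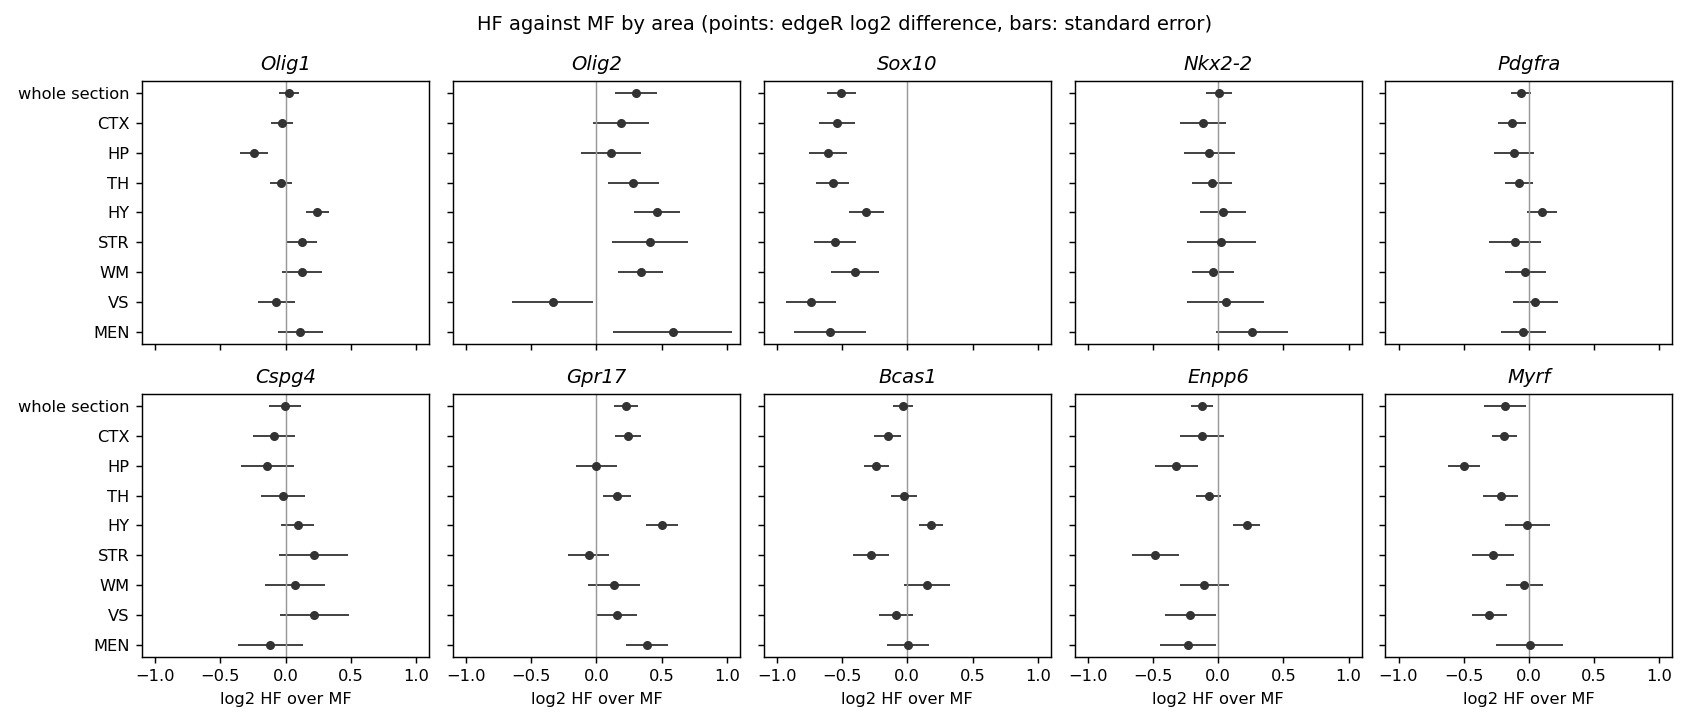
Log2 difference of HF against MF (horizontal axis) for each gene over the whole section and in the 8 areas (vertical axis), with points for the edgeR estimate and bars for its standard error. Sox10 lies below 0 throughout, from -0.74 to -0.31, and no value passed the test.

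The lists beside the 10 genes had no call outside the mature end. Of the 17 to 18 other progenitor genes, the 18 to 19 genes of committed and newly formed oligodendrocytes and the 22 to 24 upstream factors and signals that passed the filter, none was called in the whole section or any area by edgeR. In HP 11 of 20 mature myelin genes were called lower in HF, beside 0.145% of all features, and the median log2 difference of the list was -0.61. Opalin had 143 and 129 CPM in MF and 71.8 and 91.85 CPM in HF there (log2 -0.72, SE 0.122, adjusted p = 0.028 by edgeR). Mal, with -0.68, and Cldn11, with -0.66, followed. The medians in HP were -0.10 for the progenitor list and -0.07 for the newly formed list. In CTX 1 myelin gene, Apod, was called lower (log2 -0.50, adjusted p = 0.030 by edgeR). In every area the myelin list had a negative median, from -0.61 in HP to -0.09 in HY, while that of the 10 genes ran from -0.19 to 0.14. The myelin genes take part in naming WM, and the count in HP fell to 1 at a Leiden resolution of 0.5, to 4 with thinned spots and to 3 without MF replicate 1, and rose to 18 without HF replicate 1.

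Markers of other cell types were read beside the HP values. There the 11 astrocyte markers summed to 3577 and 3709 CPM in MF and to 3819 and 3100 CPM in HF, the 9 microglia markers to 463 and 505 CPM and to 484 and 395 CPM. The 10 neuron markers summed to 8407 and 8334 CPM in MF and to 8465 and 8438 CPM in HF. HF replicate 2, the lowest for Sox10, was also the lowest for the astrocyte, microglia, fibroblast, pericyte and endothelial lists in HP. Their part in the Sox10 difference was not tested.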

How the data were processed

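UMI counts per spot were deposited by the authors, who made them from the sequencing reads with Space Ranger on mm10, and Moran's I, a score per feature and section, was deposited beside them. The counts were not normalized. Spots with under 500 UMIs or 250 genes were left out. Kept spots were clustered (2000 variable features, 30 components scaled within each section, 20 neighbours, Leiden resolution 1, scikit-learn 1.9.0, leidenalg 0.10.2) without the 10 genes and the progenitor and newly formed lists, and clusters were named by the markers among their 50 leading genes. Of the genes in the lists, 2 were not measured.

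Counts were summed per section, or per section and area, since spots of 1 section are not replicates. The sums were tested in edgeR 4.0.16 (R 4.3.3, TMM, filterByExpr, glmQLFit, glmQLFTest) with Benjamini-Hochberg adjustment over all features of a fit, and the procedures were tested on simulated data. P-values measure the spread between these sections. Alternatives were DESeq2 1.42.0, library size alone, no filter on low counts, thinned spots, interior spots, other clusterings, the section number as a block, a rank test over single spots as in the methods, and each section left out. The 2 sections of 1 diet differed by more than sampling noise, so none was a duplicate. The chi-square per degree of freedom between their counts was 8.197 for the MF pair and 31.17 for the HF pair. The HF sections thus differed more from each other. The labels do not say whether same-numbered sections were paired, and the main fit used no block. Deviations of same-numbered sections correlated at r = -0.20 over the whole section and at -0.17 to 0.08 in the areas. Such values from 4 sections cannot exclude a shared slide or litter.

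The 10 genes and the lists were chosen with earlier results of these data known. All 10 genes are named in each comparison, with up to 3 list genes per direction that had the largest change among those called, and for each gene the 2 features most like it.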

Additional observations from a re-analysis of the deposited data

How the results depend on the processing

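Where edgeR called none of the 10 genes between the diets over the whole section, DESeq2 called 1 (Sox10), the rank test over single spots 2 (Olig2 and Sox10), and fits with 1 section left out 0 to 3. Without HF replicate 1 these were Olig2 and Sox10, and without HF replicate 2 Gpr17, Myrf and Sox10. Over all features those fits called 1166 and 840, against 0 with all 4 sections. Of 80 pairs of gene and area, of which none was called beside 0.0568% of all pairs of feature and area, the replicate block called 3 (Sox10 in CTX, HP and VS) beside 0.331%, the fit without a filter on low counts 5 beside 0.465%, the rank test 14 beside 7.93%, and fits with 1 section left out 0 to 15, with 15 without HF replicate 1 beside 4.58% and 5 without HF replicate 2 beside 2.41%. Pairing the sections crosswise, chosen after seeing the data, called 5 beside 0.51%. Over the whole section the rank test called 4.36% of all features and DESeq2 0.168%. For the terms of diet by area, from 0 calls, the range was 0 to 3, with 3 without HF replicate 1 and 1 without HF replicate 2. A fit with 1 section left out assumes that the lone section varies like the other group, and the cause of the changes was not tested. The 11 mature myelin genes lower in HP became 17 without the filter, 4 with thinned spots, 1 at Leiden resolution 0.5, 6 with myelin genes kept out of the clustering, 6 when scaled over all spots, 17 with the crossed block, 20 in the rank test and 3 to 18 with 1 section left out. Sox10 was lower in HF in all 130 alternative values over areas and settings, from -1.19 to -0.07. These values reuse the counts of the same 4 sections and are not independent of each other. The smallest difference, in WM, came without HF replicate 2.

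Log2 differences near 0 over the whole section changed sign. That of Nkx2-2 was -0.0017 without the filter, -0.0089 with thinned spots and -0.00089 with the crossed block, that of Cspg4 was 0.0063 with library size alone and that of Bcas1 0.019 in the rank test. With 1 section left out, the range was -0.0297 to 0.0734 for Olig1, -0.11 to 0.11 for Nkx2-2, -0.16 to 0.13 for Cspg4, -0.0934 to 0.0320 for Bcas1, 0.10 to 0.46 for Olig2, 0.11 to 0.33 for Gpr17 and -0.46 to 0.0465 for Myrf. The 100 alternative values for WM were all called higher. In TH Olig1 and Bcas1 fell under the fold threshold with library size alone, at 0.23 and 0.25.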
